A study of Mus musculus with 47 samples.

Results

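A set of 10 genes of the muscle atrophy programme was followed across single fibres of the mouse extensor digitorum longus (EDL), a fast-twitch hindlimb muscle. They were chosen by gene name, with earlier results of these data known. The set holds the ubiquitin ligase genes Trim63, Fbxo32, Fbxo30 and Fbxo21, and the transcription factor genes Foxo1, Foxo3 and Klf15. It also holds Ddit4, Eif4ebp1 and Gadd45a, which act on growth signalling and stress. All 10 genes were found among the 24421 in the files, and all 10 entered the test with 12863 genes in all. The samples were 20 fibres of C2KO mice (Mybpc2 knockout, C2-/-) and 27 fibres of wild type (WT) mice. All mice were of the FVB/N strain and 2 to 3 months old, and received no treatment that the labels name. The knockout is present throughout the body, since a Neo cassette flanked by LoxP sites takes the place of most of Mybpc2, the gene of fast myosin binding protein C. Collagenase freed the fibres, and each sample is the RNA of 1 fibre.

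The labels name 2 C2KO and 3 WT mice but tie no fibre to a mouse, so the fibres were summed into pools, the largest sets that the labels separate. The C2KO fibres form pool 740 and pool 2445, named for the prefix of the fibre name, with 10 fibres each. The WT fibres form WT pool 1, WT pool 2 and WT pool 3 by sequencing run, with 10, 10 and 7 fibres. Levels are given in CPM, counts of a gene per 1000000 counts of all genes. Libraries held 7648762 to 14606631 gene counts, and Mybpc2 was at 2.61 to 47.6 CPM in C2KO fibres and at 6563 to 11556 CPM in WT fibres. Fast-fibre markers such as Myh4 and Acta1 summed to a median of 306971 CPM in C2KO and 297622 CPM in WT fibres. Blood and fat markers were at or near 0 in all fibres. The summed endothelial and fibroblast markers ran from 0 to 5058 CPM in C2KO and from 0.984 to 353 CPM in WT fibres, and were over 3 times the median of all fibres in 7 C2KO fibres (5 of pool 740, 2 of pool 2445) and 6 WT fibres. All fibres of pool 740 held Y-linked RNA, all of pool 2445 held Xist RNA, and each WT pool held fibres of both kinds.

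Muscle loses protein when breakdown outruns synthesis. FoxO transcription factors, held out of the nucleus by insulin and Akt signalling, switch on ubiquitin ligases that mark proteins for the proteasome, and Trim63 and Fbxo32 are the ligases known best for rising in wasting muscle of rodents. Glucocorticoids act on the same genes, in part through Klf15 and Ddit4, while the ATF4 branch of the stress response induces Gadd45a and Eif4ebp1.

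No gene of the set was called different between C2KO and WT pools, although all 10 fitted fold changes were positive. Of all 12863 genes tested, 0.0466% passed in either direction (adjusted p under 0.05 with more than a 1.5-fold change), and 49.9% had a positive fold change. The median log2 fold change was 0.48 over the 10 genes and -0.00038 over all genes tested. In 6 of the 10 genes (Trim63, Fbxo32, Foxo1, Ddit4, Eif4ebp1 and Gadd45a) both C2KO pools lay above all 3 WT pools, as in 13.1% of all genes. An unadjusted p under 0.05 with a higher C2KO level was reached by 5 genes (Trim63, Fbxo32, Foxo1, Eif4ebp1 and Gadd45a), as by 6.2% of all genes. The 10 genes were chosen with earlier results of these data known, so their shares beside those of all genes are a description. The p-values measure the spread between pools, which may be technical, and the WT pools share mice. Sequencing run can hardly be told apart from genotype, because 1 run alone held fibres of both. Both kinds of sex-linked RNA were present in both genotypes, and with the kind as a covariate the log2 fold change was 0.88 for Trim63 (edgeR adjusted p = 0.249) and 0.52 for Fbxo32 (edgeR adjusted p = 0.321), with 0 of the 10 genes called.

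**Figure D1:**
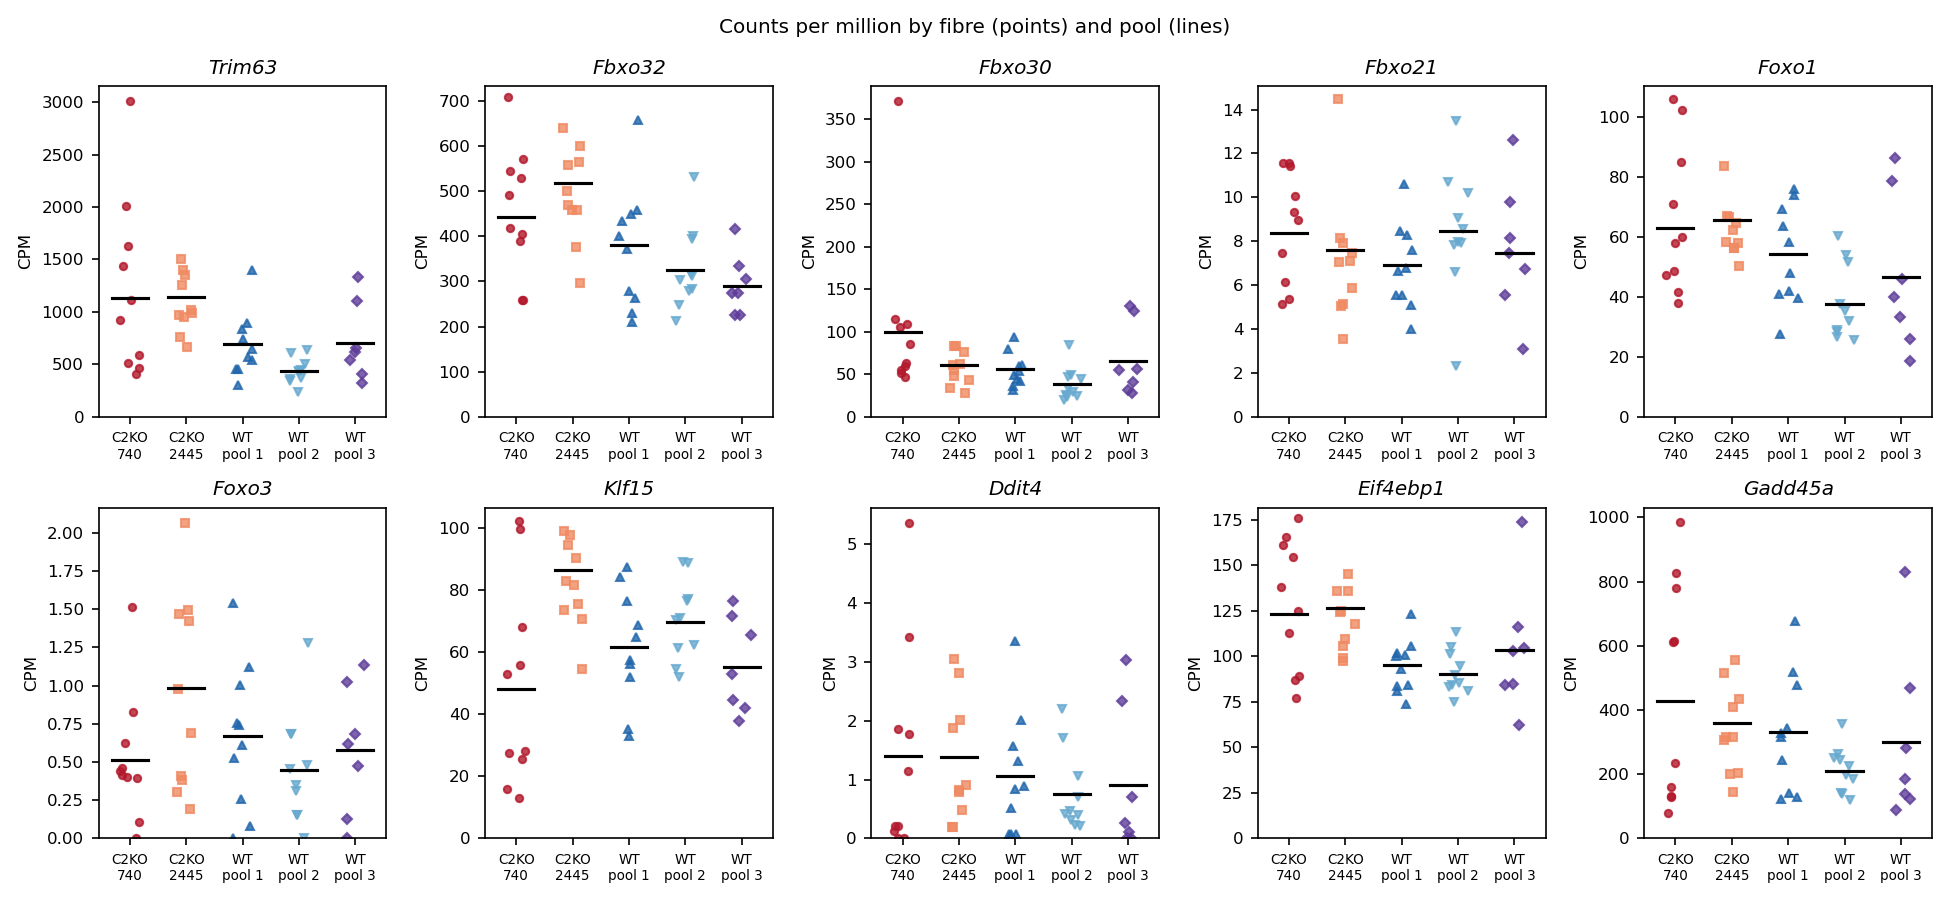
CPM (linear axes from 0) of the 10 genes in each fibre, by pool, with 10 fibres each in C2KO pools 740 and 2445 and in WT pools 1 and 2, and 7 in WT pool 3. Points are fibres and lines are TMM-scaled values of the summed pools. Trim63 lies at 1136 and 1146 CPM in the C2KO pools and at 437 to 704 CPM in the WT pools, and fibres of pool 740 spread most widely for Trim63, Fbxo30, Klf15 and Gadd45a.

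Compared per kilobase of exon, the levels spanned a wide range. Trim63 led with a median of 532 CPM per kb in C2KO and 289 CPM per kb in WT fibres. Gadd45a followed (258 in C2KO, 199 CPM per kb in WT), then Eif4ebp1 (127 in C2KO, 95.02 CPM per kb in WT), Fbxo32 (69.3 in C2KO, 44.1 CPM per kb in WT) and Klf15 (31.4 in C2KO, 28.3 CPM per kb in WT). Fbxo30 and Foxo1 stood next to each other, with medians of 12.0 and 10.6 CPM per kb in C2KO fibres and 8.77 and 7.40 CPM per kb in WT fibres. Fbxo21 (1.91 in C2KO, 2.00 CPM per kb in WT), Ddit4 (0.52 in C2KO, 0.31 CPM per kb in WT) and Foxo3 (0.16 in C2KO, 0.18 CPM per kb in WT) were the lowest. The ranges over fibres of each gene and the next in this order overlapped in both genotypes, apart from Foxo1 and Fbxo21 in C2KO fibres, where the lowest Foxo1 fibre was at 6.81 and the highest Fbxo21 fibre at 3.70 CPM per kb.

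Trim63 (mm10 chromosome 4, 134315120 to 134329629, plus strand) encodes MuRF1, a RING-type ligase of the sarcomere that tags thick-filament proteins. It ran from 407 through a median of 1004 to 3014 CPM over 20 C2KO fibres, and from 236 through 544 to 1401 CPM over 27 WT fibres. The fibre ranges overlapped, but 17 C2KO fibres lay above the WT median and 6 lay above the highest WT fibre. By pool it was at 1136 (740) and 1146 CPM (2445) in C2KO, against 693, 437 and 704 CPM in WT pools 1, 2 and 3. The C2KO mean was 1141 CPM ± 7.58 (SD, n = 2 pools) and the WT mean 612 CPM ± 151 (SD, n = 3 pools). The log2 fold change of 0.90 (SE 0.21) gave an edgeR adjusted p of 0.395. DESeq2 on the same pools called Trim63 (adjusted p = 0.0027), the only gene of the set it called, where it called 1.18% of all genes higher in C2KO. Its adjusted p was also under 0.05 for Fbxo32 (0.024) and Eif4ebp1 (0.020), as for 1.54% of all genes with a higher C2KO level, but their changes were under 1.5-fold.

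The Trim63 promoter is the only one of 8 available promoters of the set that held a FoxO element, so it is shown here from 250 bases before to 10 bases after the start (RefSeq, GRCm38.p6, chr4:134314870-134315129, plus strand). Capitals mark a glucocorticoid half-site, TGTTCT, followed directly by a FoxO element, TGTTTAC.
Trim63: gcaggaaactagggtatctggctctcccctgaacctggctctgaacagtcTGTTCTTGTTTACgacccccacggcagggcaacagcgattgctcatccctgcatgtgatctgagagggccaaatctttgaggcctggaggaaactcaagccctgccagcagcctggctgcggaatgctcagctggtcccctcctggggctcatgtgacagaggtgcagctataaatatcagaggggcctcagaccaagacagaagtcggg
The half-site lay 200 to 195 bases and the FoxO element 194 to 188 bases before the start. The search window was 300 bases, from 250 before to 50 after the start, on both strands. The FoxO letters GTAAACA (or TGTTTAC on the other strand) stand in 3.65% of 32851 mouse promoters and the half-site AGAACA (or TGTTCT) in 18.97%. Neither stood in the windows of the other 7 members searched. The Fbxo30 window began at 11281337, inside the counted gene (from 11281330), so bases before that gene were not searched for any element. The ATF4 element TGATGNAA, found in 3.97% of promoters, stood in none of the 8. No promoter was available for Fbxo32 or Eif4ebp1, so these genes were not searched for any element. A match is a run of letters, and binding was not measured here.

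Fbxo32 (chromosome 15, 58175879 to 58214892, minus strand) encodes atrogin-1, the F-box subunit that brings substrates to an SCF ligase. It ran from 258 through 481 to 708 CPM in C2KO fibres, and from 210 through 306 to 659 CPM in WT fibres. Again 17 C2KO fibres exceeded the WT median, but only 1 exceeded the highest WT fibre. The pools were at 443 (740) and 518 CPM (2445) in C2KO, against 380, 325 and 289 CPM in WT pools 1, 2 and 3. The means were 480 CPM ± 53.3 (SD, n = 2 pools) in C2KO and 332 CPM ± 45.7 (SD, n = 3 pools) in WT, which gave a fold change of 0.53 on the log2 scale (SE 0.14) and an edgeR adjusted p of 0.412. Over single fibres with run as a covariate the value was -0.13 (edgeR adjusted p = 0.942). That fit compares genotypes in 1 run alone, where C2KO had 1 fibre and WT had 7.

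Fbxo30 (chromosome 10, 11281330 to 11297969, plus strand) encodes MUSA1, an F-box ligase of denervated mouse muscle that BMP signalling holds down. It ran from 28.2 through 61.2 to 372 CPM in C2KO fibres, and from 19.7 through 44.9 to 130 CPM in WT fibres. The highest value, in fibre C2KO 11, was far above the 115 CPM of the next fibre of its pool. By pool Fbxo30 was at 99.4 (740) and 61.1 CPM (2445) in C2KO, against 55.9, 38.02 and 65.7 CPM in WT pools 1, 2 and 3, so the pools of the genotypes overlapped. The fitted log2 difference between C2KO and WT was 0.59 with an SE of 0.28 (edgeR adjusted p = 0.522). The value was 0.34 without fibre C2KO 11 (edgeR adjusted p = 0.656), a choice made after the data were seen, and 0.20 without pool 740 (edgeR adjusted p = 0.855). It was 0.91 without pool 2445 (edgeR adjusted p = 0.164), the highest of the values with a pool left out.

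Fbxo21 (chromosome 5, 117976770 to 118010191, plus strand) encodes SMART, a FoxO-dependent F-box ligase described in atrophying mouse muscle. It was low in every fibre, from 3.55 through 7.46 to 14.5 CPM in C2KO and from 2.30 through 7.82 to 13.5 CPM in WT. The pools lay at 8.37 (740) and 7.58 CPM (2445) in C2KO, within the 6.91, 8.47 and 7.46 CPM of WT pools 1, 2 and 3. Its log2 difference of 0.066 with an SE of 0.14 (edgeR adjusted p = 0.908) turned to -0.0038 without WT pool 1 and to -0.0060 without pool 740.

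Foxo1 (chromosome 3, 52268337 to 52350109, plus strand) encodes a forkhead factor that drives ligase and autophagy genes when Akt is inactive. It ran from 37.8 through 59.1 to 106 CPM in C2KO fibres, and from 18.7 through 41.1 to 86.3 CPM in WT fibres. Of the C2KO fibres 19 of 20 lay above the WT median, and 11 of 27 WT fibres lay below the lowest C2KO fibre. The pools were at 63.1 (740) and 65.7 CPM (2445) in C2KO, against 54.4, 37.5 and 46.5 CPM in WT pools 1, 2 and 3. The edgeR fit put the log2 fold change at 0.48 (SE 0.16, adjusted p = 0.441).
Over fibres, Foxo1 went with the summed macrophage markers at Spearman's rho 0.63 after pool means were removed. That sum ran from 3.02 to 26.02 CPM in C2KO and from 1.91 to 18.8 CPM in WT fibres and came mostly from Mrc1 and Cd68, while Ptprc, Adgre1, Csf1r and C1qa were each at 0 in at least 44 of 47 fibres. Its part in the Foxo1 values was not tested.

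Foxo3 (chromosome 10, 42185786 to 42276742, minus strand), whose protein shares targets with Foxo1, was barely detected. It had 0 to 20 counts per fibre, from 0 through 0.45 to 2.06 CPM in C2KO and from 0 through 0.52 to 1.54 CPM in WT. It had 0 counts in 1 C2KO and 3 WT fibres, where 3 counts, the limit a count of 0 allows, would be 0.22 to 0.39 CPM. The pools were at 0.51 (740) and 0.98 CPM (2445) in C2KO, against 0.67, 0.44 and 0.58 CPM in WT pools 1, 2 and 3. On the log2 scale the fitted difference of 0.41 (SE 0.43, edgeR adjusted p = 0.784) turned to -0.13 without pool 2445 and was 0.80 without pool 740.

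Klf15 (chromosome 6, 90462626 to 90475209, plus strand) encodes a zinc-finger factor that glucocorticoids induce and that directs amino acid breakdown in muscle. Its C2KO pools lay on either side of the WT pools. Fibres of pool 740 ran from 13.0 through 40.6 to 102 CPM and those of pool 2445 from 54.6 through 82.2 to 98.9 CPM, against 32.9 through 65.0 to 89.03 CPM over all WT fibres. Of the 20 C2KO fibres, 6 lay above the highest WT fibre and 5, all of pool 740, lay below the lowest. The pools were at 48.2 (740) and 86.5 CPM (2445) in C2KO, against 61.5, 69.7 and 55.1 CPM in WT pools 1, 2 and 3. Over the pools the log2 difference between genotypes was 0.12 with an SE of 0.25 (edgeR adjusted p = 0.904). This turned to -0.36 without pool 2445, to -0.090 with limma-voom over single fibres and to -1.75 with run as a covariate, and was 0.48 without pool 740, none called.

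Ddit4 (chromosome 10, 59949675 to 59951770, minus strand) encodes REDD1, an inhibitor of the growth kinase complex mTORC1 that glucocorticoids and low oxygen induce. It was a gene of few counts, 0 to 50 per fibre, from 0 through 0.87 to 5.36 CPM in C2KO and from 0 through 0.52 to 3.36 CPM in WT. In 2 C2KO and 2 WT fibres it had 0 counts, where 3 counts would be 0.33 to 0.39 CPM. The pools lay at 1.397 (740) and 1.38 CPM (2445) in C2KO, against 1.06, 0.75 and 0.91 CPM in WT pools 1, 2 and 3. The edgeR log2 fold change was 0.62 (SE 0.29, adjusted p = 0.522). The highest C2KO fibres of pool 740, C2KO 14 at 5.36 CPM and C2KO 17 at 3.42 CPM, also held the most endothelial and fibroblast marker RNA of all fibres, 1132 and 5058 CPM. Without the fibres high in those markers the fold change was -0.12 (edgeR adjusted p = 0.963), and it was -6.30 with run as a covariate, where the lone C2KO fibre of the shared run had 0 counts.

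Eif4ebp1 (chromosome 8, 27260327 to 27275656, plus strand) encodes a repressor of cap-dependent translation that mTORC1 switches off. Its spread over fibres was the narrowest of the 10 genes (coefficient of variation 22.2% in C2KO and 21.9% in WT), from 76.95 through 125 to 176 CPM in C2KO fibres and from 62.1 through 93.2 to 174 CPM in WT fibres. Of the C2KO fibres 17 of 20 lay above the WT median, and only 1 of 27 WT fibres lay above the C2KO median. The pools were at 123 (740) and 126 CPM (2445) in C2KO, against 95.1, 90.4 and 104 CPM in WT pools 1, 2 and 3. The means were 125 CPM ± 2.35 (SD, n = 2 pools) in C2KO and 96.4 CPM ± 6.74 (SD, n = 3 pools) in WT, a log2 difference of 0.37 with an SE of 0.093 (edgeR adjusted p = 0.407).

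Gadd45a (chromosome 6, 67035096 to 67037407, minus strand) encodes a small nuclear stress protein that promotes fibre atrophy in mice. It ran from 78.9 through 315 to 985 CPM in C2KO fibres, and from 88.3 through 243 to 831 CPM in WT fibres, so almost the whole ranges overlapped. The pools were at 427 (740) and 360 CPM (2445) in C2KO, against 332, 211 and 300.5 CPM in WT pools 1, 2 and 3. The log2 fold change was 0.48 (SE 0.20, edgeR adjusted p = 0.479) and was 1.39 with run as a covariate and 0.31 without WT pool 2, neither called. Exons of Gadd45a share 238 bases with E230016M11Rik on the opposite strand, and since no source used here gives the strandedness of the kit, reads of this pair cannot be told apart there. The other 9 genes shared no exon base with another gene.

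**Figure D2:**
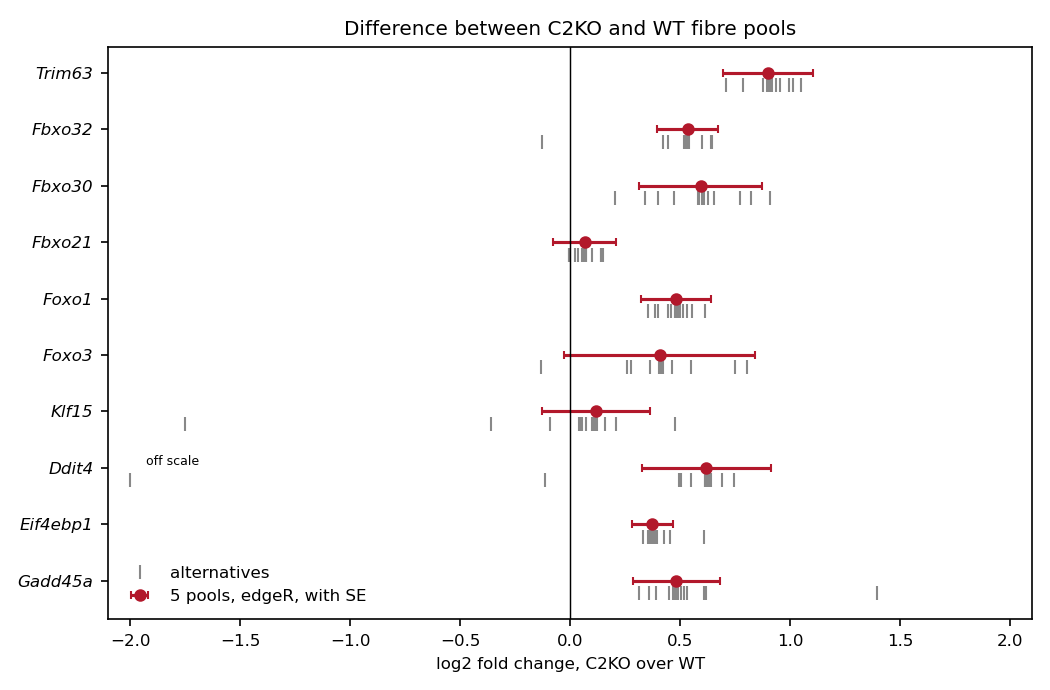
Log2 fold change of each gene, C2KO over WT, from the edgeR fit of 2 C2KO and 3 WT pools (points, with the SE of the fit as bars) and from the alternative fits (grey ticks). All 10 points lie above 0, from 0.066 for Fbxo21 to 0.90 for Trim63, and the Ddit4 value of -6.30 with run as a covariate is drawn at the left edge.

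When single fibres took the place of pools, 2 genes were called. With limma-voom over the 47 fibres, Trim63 (log2 fold change 0.92, adjusted p = 0.00058) and Fbxo30 (0.60, adjusted p = 0.032) passed out of 9 genes tested, where 2.42% of all genes were called higher in C2KO. An adjusted p under 0.05 at any fold was reached by 5 of the 9 (also Fbxo32, Foxo1 and Eif4ebp1), all higher in C2KO, as by 9.14% of all genes. The edgeR fit over fibres called the same 2, where 3.08% of all genes were called higher, and gave the same 5 an adjusted p under 0.05, as 9.79% of all genes with a higher C2KO level. Fibres of a mouse are not independent, so these p-values are too small as statements about mice. With run as a covariate none of the 9 was called.

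C2KO pool 740 held Y-linked RNA and pool 2445 Xist RNA, so the fibres were also split by these RNAs (WT fibre 9, with neither alone, left out). No gene of the set passed the interaction test of genotype and sex-linked RNA, which called 0.0159% of 12598 genes. Each C2KO arm of that test is 1 pool, so its spread comes from the WT pools alone. Fbxo30 alone had an unadjusted p under 0.05 (p = 0.031 from the edgeR fit), and its C2KO arm with Y-linked RNA includes fibre C2KO 11. It was at 98.7 CPM in C2KO against 49.2, 32.5 and 57.8 CPM in WT fibres with Y-linked RNA, and at 61.5 CPM in C2KO against 60.1, 52.1 and 75.5 CPM in WT fibres with Xist RNA (difference of log2 fold changes 1.14, SE 0.44, edgeR adjusted p = 0.567). Klf15 was at 47.8 CPM in C2KO against 63.3, 64.9 and 50.7 CPM in WT fibres with Y-linked RNA, and at 87.1 CPM in C2KO against 56.4, 82.4 and 60.5 CPM in WT fibres with Xist RNA (difference -0.68, SE 0.33, edgeR adjusted p = 0.682). Each kind has 1 C2KO pool, so within C2KO the kind of RNA and the prefix cannot be told apart. In the run that held fibres of both C2KO pools, Fbxo30 had a median of 61.4 CPM in 6 fibres of pool 740 and 57.9 CPM in 10 fibres of pool 2445. In the same run Klf15 had a median of 54.4 CPM in pool 740 and 82.2 CPM in pool 2445.

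Across fibres of the same pool the 10 genes did not move as 1 block. Co-variation is given as Spearman's rho on log2(CPM + 1) over the 47 fibres, each centred on its pool mean. Values over C2KO or WT fibres alone are on CPM without centring, so differences between pools enter them. Fibres share mice, runs and depth, so rho is a description. Gadd45a and Eif4ebp1 went together at 0.85, and Klf15 and Ddit4 at 0.74. The pairs ran against each other, with Klf15 at -0.83 to Gadd45a and -0.69 to Eif4ebp1, and Ddit4 at -0.71 and -0.62 to the same genes. All of these 6 values kept their sign in each of the 5 pools, and are among the 10 of 45 pairs that did.

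**Figure D3:**
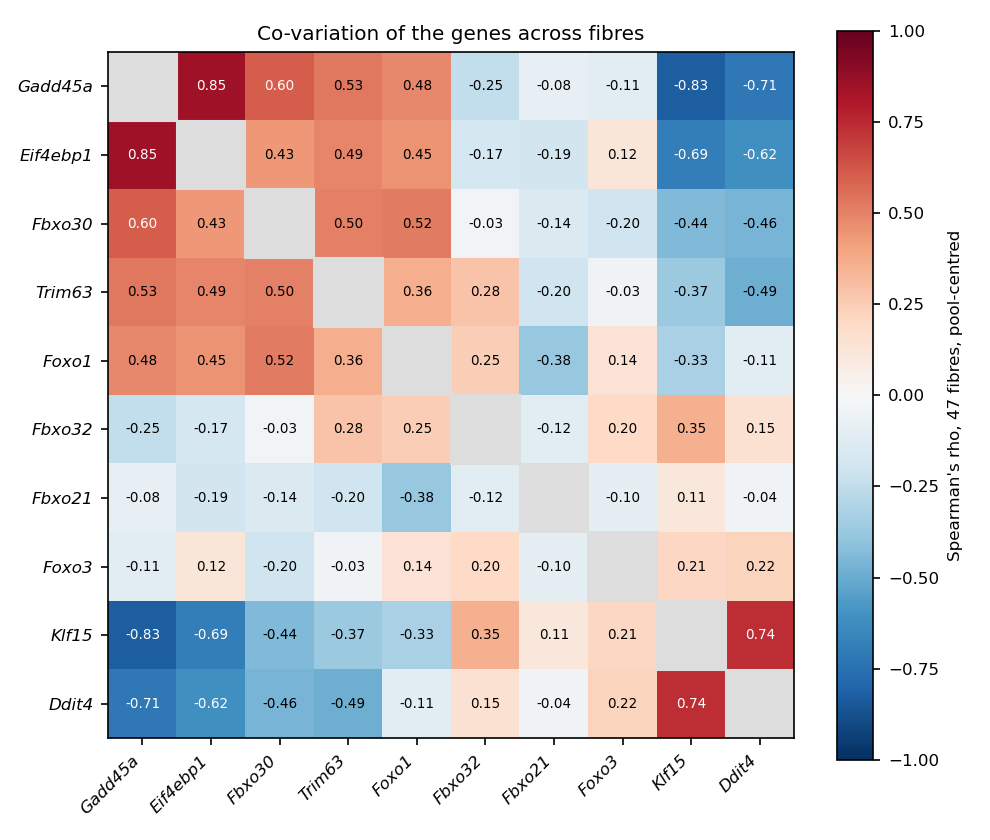
Spearman's rho between the 10 genes over 47 fibres after removing pool means (colour scale from -1 to 1). Gadd45a, Eif4ebp1, Fbxo30, Trim63 and Foxo1 are positive to each other (0.36 to 0.85), and Klf15 and Ddit4 are negative to all 5 (-0.11 to -0.83).

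The opposition of Klf15 and Gadd45a was seen in both genotypes, at rho -0.69 over the 20 C2KO fibres and -0.71 over the 27 WT fibres, and it ran from -0.84 to -0.67 over the 5 pools. In pool 740, fibre C2KO 11 had 985 CPM of Gadd45a and 13.0 CPM of Klf15, and C2KO 13 had 781 CPM of Gadd45a and 15.95 CPM of Klf15. Fibre C2KO 17, at the other end, had 78.9 CPM of Gadd45a and 99.5 CPM of Klf15. In WT pool 3, WT 16 had 831 CPM of Gadd45a and 37.8 CPM of Klf15. Depth went with neither gene (rho -0.031 for Gadd45a and 0.027 for Klf15). The summed dissociation-response markers, immediate-early and heat-shock genes such as Fos and Hspa1a, went with Gadd45a at 0.31 and with Klf15 at -0.26. Of the 10 genes, Trim63 had the highest rho to that sum (0.35) and Ddit4 the lowest (-0.34). The median of the sum was 3209 CPM in C2KO and 4292 CPM in WT fibres, with 2471 CPM in pool 740 and 5180 CPM in pool 2445. Fast-fibre markers went with Gadd45a at -0.39 and with Klf15 at 0.33. The part of these in the pattern was not tested.

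**Figure D4:**
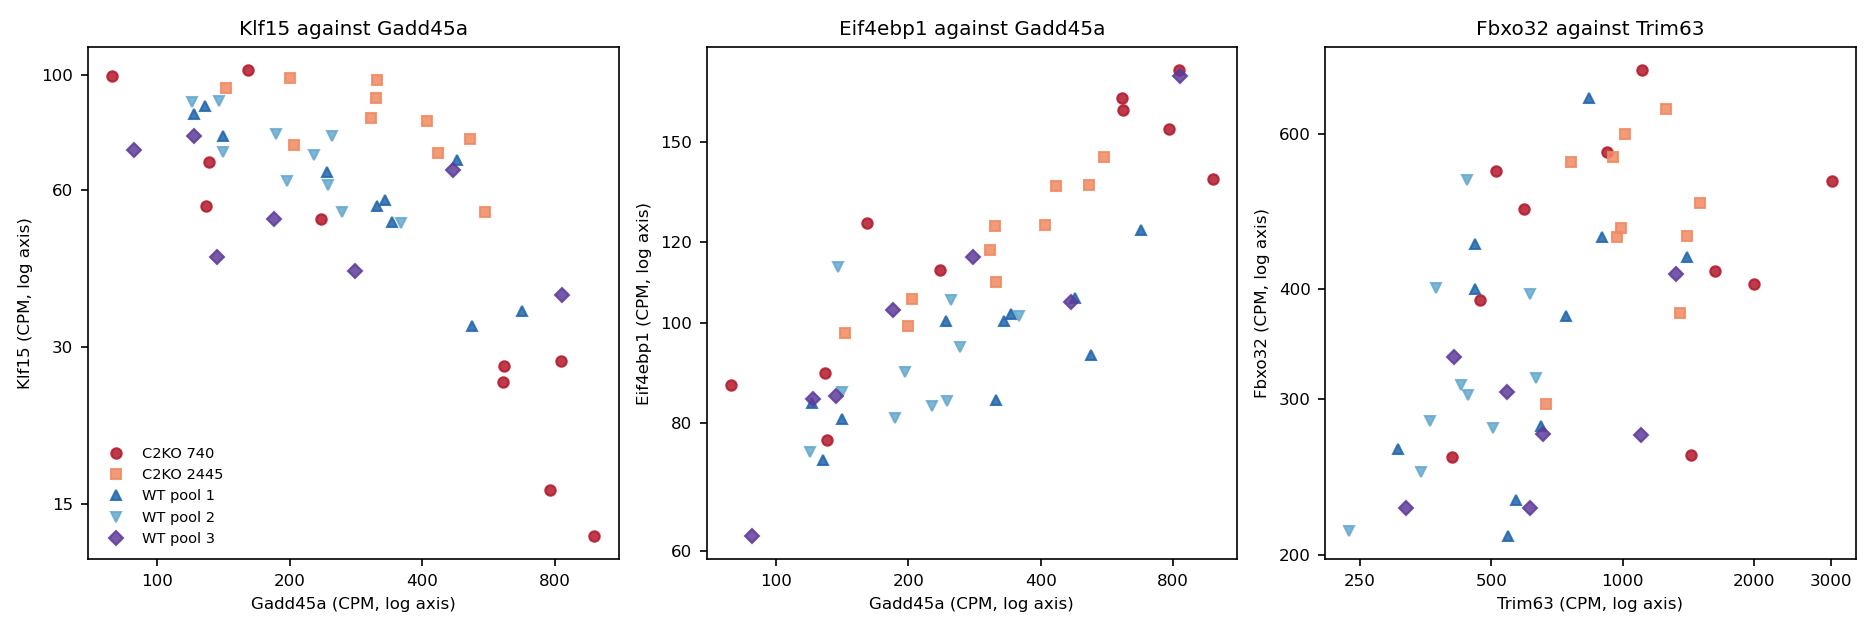
CPM of 3 gene pairs in each of the 47 fibres (log axes), by pool. Klf15 lies lower where Gadd45a is higher (pool-centred rho -0.83), Eif4ebp1 lies higher (0.85), and Fbxo32 and Trim63 show a loose relation (0.28).

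The ligases were less tied to each other. Trim63 and Fbxo32, often measured as a pair, had a rho of 0.28, and 0.12 to 0.50 over the 5 pools. Without centring it was 0.35 over WT fibres and 0.04 over C2KO fibres. The C2KO value lay below the 0.21 of pool 740 and the 0.12 of pool 2445. Over all 47 fibres Trim63 had a higher rho to Gadd45a (0.53), Fbxo30 (0.50) and Eif4ebp1 (0.49), but each of these turned negative in 1 WT pool. Over WT fibres alone its rho was 0.23 to Gadd45a, 0.51 to Fbxo30 and 0.30 to Eif4ebp1. Fbxo32 was the only ligase gene of the 4 with a rho to Klf15 above 0.3 (0.35, with 0.048 over C2KO and 0.56 over WT fibres), and was at -0.25 to Gadd45a. Fbxo30 was at 0.60 to Gadd45a and 0.52 to Foxo1. Foxo1 was at 0.36 to Trim63 and 0.25 to Fbxo32. In WT pool 1 Foxo1 was at -0.24 to Trim63 and -0.54 to Fbxo32. In pool 2445 Foxo1 was at -0.24 to Fbxo30. Over C2KO fibres its rho was 0.75 to Trim63 and 0.45 to Fbxo30, against 0.24 to Trim63 and 0.59 to Fbxo30 over WT fibres, a difference that was not tested. The rho of Trim63 to Gadd45a was 0.82 over C2KO fibres, and its difference from the WT value was not tested. By pool it was 0.92 in pool 740 and 0.20 in pool 2445. The rho of Foxo1 to Trim63 was likewise 0.81 in pool 740 and 0.26 in pool 2445. Fbxo21, Foxo3 and Ddit4 have few counts, which bounds their rho.

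For each of the 7 genes averaging at least 20 CPM, the 6052 other genes averaging at least 10 CPM were ranked by the same pool-centred rho. Of all 6052, Gadd45a had the lowest rho to Klf15. The genes nearest to Klf15 were Ciart (0.89), a repressor of the circadian clock, Lrrc30 (0.88) and Tob2 (0.88). Nearest to Gadd45a were E230016M11Rik (0.98), which shares exon bases with it, then Txnrd1 (0.95), a thioredoxin reductase, and Stat3 (0.94), a cytokine-activated transcription factor. Eif4ebp1 had Gadd45a itself first (0.85), then E230016M11Rik (0.84) and Mustn1 (0.83). For scale, the top 1% of ranked genes began at 0.66 for Klf15, 0.86 for Gadd45a and 0.72 for Eif4ebp1.

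Trim63 was nearest to Slc2a1 (0.79), the glucose transporter GLUT1, Gabarapl1 (0.78), an autophagosome protein, and Klf6 (0.76), while Fbxo32 was only 682nd in its list. Fbxo32 was nearest to Klhl38 (0.79), its neighbour on chromosome 15. Klhl38 (58314573 to 58324169) lies upstream of Fbxo32 on the same, minus, strand, with 99680 bases and 0 other genes of the files between them. Next were Kdm6a (0.66), a gene of chromosome X, and Ampd1 (0.62). Each WT pool held fibres with Y-linked and with Xist RNA, so centring on pool means leaves differences between these kinds in. With Xist RNA, Fbxo32 was at 441.7, 442.8 and 298.8 CPM in WT pools 1, 2 and 3. With Y-linked RNA it was at 279.7, 279.6 and 279.95 CPM. The part of such differences in these rho values was not tested. Fbxo30, also higher with Xist RNA in each WT pool, was nearest to Gna13 (0.88), Phf8 (0.83, on chromosome X) and Agpat9 (0.83). Foxo1 was nearest to Nrip1 (0.78), Mbnl2 (0.77) and Tcp11l2 (0.75). For scale, 1% of the ranked genes lay above 0.58 for Trim63, 0.45 for Fbxo32, 0.70 for Fbxo30 and 0.57 for Foxo1.

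The promoters of Klf15 and of Ciart, the gene most like it, are shown because both hold 3 copies of the E-box CACGTG, the element that clock factors are known to bind. This motif was searched after the promoters and the likeness had been seen, and the windows of Lrrc30 and Tob2, the next most like Klf15, held 0. Both run from 250 bases before to 10 after the start (RefSeq, GRCm38.p6), Klf15 at chr6:90462326-90462585 (plus strand) and Ciart at chr3:95882219-95882478 (minus strand), with E-boxes in capitals.
Klf15: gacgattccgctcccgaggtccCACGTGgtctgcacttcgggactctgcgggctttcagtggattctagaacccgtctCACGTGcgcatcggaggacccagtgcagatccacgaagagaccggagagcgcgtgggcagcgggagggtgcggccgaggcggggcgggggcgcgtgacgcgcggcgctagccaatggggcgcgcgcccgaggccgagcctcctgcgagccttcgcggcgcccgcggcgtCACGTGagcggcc
Ciart: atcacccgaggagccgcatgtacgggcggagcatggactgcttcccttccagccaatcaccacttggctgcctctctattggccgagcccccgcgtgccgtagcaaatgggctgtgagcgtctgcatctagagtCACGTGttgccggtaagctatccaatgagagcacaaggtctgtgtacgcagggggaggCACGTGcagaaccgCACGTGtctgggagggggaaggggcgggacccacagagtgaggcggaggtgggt
The copies began 228, 172 and 3 bases before the start of Klf15 and 116, 58 and 44 bases before that of Ciart. Of 32851 promoters 7.15% held at least 1 E-box and 29 (0.0883%) held at least 3. None of the other 7 members with a promoter in the table held one. Matches of letters say nothing of binding, and no source used here gives the time of day at which fibres were taken.

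Other genes of the same pathways were counted from 8 lists with 112 tested genes, chosen, like the 10 genes, with earlier results of these data known. None was called by edgeR, against 0.0466% of all genes, and 8 with a positive and 6 with a negative fold change had an unadjusted p under 0.05. These are 7.14% and 5.36% of the list genes, near the 6.2% of all genes with a positive and 4.13% with a negative fold change. DESeq2 on the pools called 2 of 115 (Tgif1 higher and Rptor lower in C2KO), or 1.74%, near its 1.66% of all genes. Over single fibres 6 of 100 (6%) were called by limma-voom and 6 by edgeR, where 4.67% of all genes were called by limma-voom and 4.78% by edgeR. Of 18 other muscle ligase genes 7 fold changes were positive and 11 negative, with a median log2 fold change of -0.11. Among them Asb2, a cullin-ligase adaptor, was at 806 CPM in C2KO and 829 CPM in WT pools on average, and Trim54, a relative of Trim63, at 548 CPM in C2KO and 546 CPM in WT. Of 13 genes of ubiquitin, its activating and conjugating enzymes, deubiquitinases and Zfand5, 11 were positive (median 0.18). Among them Zfand5 was at 548 CPM in C2KO and 486 CPM in WT, and Ube2b at 545 CPM in C2KO and 501 CPM in WT.

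Of 18 further FoxO target genes 10 fold changes were positive and 8 negative (median 0.063). Bnip3, a mitophagy receptor, was at 298 CPM in C2KO and 234 CPM in WT (log2 difference 0.35 with an SE of 0.085, edgeR adjusted p = 0.399), and Txnip, a brake on glucose uptake, at 504 CPM in C2KO and 447 CPM in WT. Of 19 Akt and mTOR genes 9 were positive (median -0.0092), with Ddit4l at 536 CPM in C2KO and 656 CPM in WT and Eif4g1 at 257 CPM in C2KO and 294 CPM in WT. Ddit4l, a relative of Ddit4 that likewise restrains mTORC1, was thus abundant where Ddit4 was near 1 CPM.
Of 13 glucocorticoid response genes 8 were positive (median 0.0087), with Tsc22d3 at 663 CPM in C2KO and 621 CPM in WT and Cebpd at 392 CPM in C2KO and 501 CPM in WT. Of 14 tested ATF4 pathway genes 11 were positive (median 0.25), with Atf3 at 303 CPM in C2KO and 371 CPM in WT and Atf4 at 164 CPM in C2KO and 156 CPM in WT. Of 10 tested denervation genes 6 were positive (median 0.056), with Hdac4 at 51.6 CPM in C2KO and 51.5 CPM in WT and Chrna1 at 51.04 CPM in C2KO and 47.3 CPM in WT. Of 7 tested Klf15 target genes 2 were positive (median -0.044), with Slc2a4 at 576 CPM in C2KO and 626 CPM in WT and Gpt2 at 441 CPM in C2KO and 494 CPM in WT.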

How the data were processed

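RNA of 47 single EDL fibres, 20 C2KO and 27 WT, was analysed. For each fibre the authors deposited whole-number counts per gene of mm10. Headers of these files show that featureCounts 1.5.2 counted exons with strand option 2. CASAVA 1.4, FastQC 0.11.2 and HISAT2 2.0.5 stand in the submitters' processing notes as well. The kit's strandedness was not found in these sources. The study's methods and the labels name different RNA kits, and the labels were followed.

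Counts were summed into 5 pools and tested with edgeR 4.0.16 (R 4.3.3) by the quasi-likelihood test with TMM, filterByExpr and Benjamini-Hochberg adjustment over all genes tested. Calls needed an adjusted p under 0.05 together with more than a 1.5-fold change, as in the study's methods. The C2KO pools differ in sex-linked RNA and so hold different mice, whereas fibres of either kind stood in every WT pool. Pool values are TMM-scaled CPM, and fibre values are CPM of all gene counts. DESeq2 1.42.0, limma-voom (limma 3.58.1), single fibres, run, sex-linked RNA (over 10 counts of Y-linked genes alone or of Xist alone), marker RNA and leaving out each pool were tried. The edgeR and limma-voom fits were tested on simulated data first. CPM floors use 3 counts and cover counting error only.

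Named genes were all 10 members, up to 3 called genes of each related list or else its 2 most abundant, the 3 genes with the highest pool-centred rho to each member averaging at least 20 CPM, and Mybpc2. Genes named among the marker lists are examples. The members and lists were chosen with earlier results of these data known, some members appearing in the study's tables for these fibres. Promoters were from RefSeq (GRCm38.p6) and matched by symbol for 8 of 10 members.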

Additional observations from a re-analysis of the deposited data

Results flagged for a closer look

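Each of the 10 genes was examined in each of the 5 pools for a fibre far from the others, which gave 4 such fibres in 50 combinations. The rule set the gap to the nearest fibre against the range of the pool, in CPM. Its nominal rate of about 1 in 20 was not estimated from these data, so the count is a description. Fbxo30 was at 372 CPM in C2KO 11 of pool 740, where the nearest fibre was at 115 CPM, and at 84.3 CPM in WT 12 of WT pool 2, where the nearest was at 49.04 CPM. C2KO 11 was also the highest of all 47 fibres for Trim63, at 3014 CPM. Fbxo21 was at 14.5 CPM in C2KO 4 of pool 2445, where the nearest was at 8.14 CPM. Foxo1 was at 83.6 CPM in C2KO 1 of the same pool, where the nearest was at 66.9 CPM. All 4 lay above their pools. The endothelial and fibroblast marker sum was 63.2 CPM in C2KO 11, 95.97 CPM in WT 12 and 360 CPM in C2KO 4. Each of these was over 3 times the median of all fibres, while C2KO 1 was at 4.06 CPM. The part of this marker RNA in these values was not tested.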

How the results depend on the processing

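The pools gave 0 called genes of the 10 with edgeR, and likewise without a filter and with limma-voom on the pools. The same held without each pool in turn (0 to 0) and with sex-linked RNA as a covariate. It also held without fibres high in endothelial and fibroblast markers, without a fold threshold (edgeR on the pools) and without fibre C2KO 11. Run as a covariate was fitted over single fibres, where 9 of the 10 genes were tested. DESeq2 on the pools called 1 (Trim63), and limma-voom and edgeR over single fibres called 2 each (Trim63 and Fbxo30). Fold changes kept their sign in 128 of 137 alternative values. The 9 that turned were Fbxo32 at -0.13, Klf15 at -1.75 and Ddit4 at -6.30 with run as a covariate, Klf15 at -0.36 and Foxo3 at -0.13 without pool 2445, Klf15 at -0.090 with limma-voom over single fibres, Ddit4 at -0.12 without fibres high in marker RNA, and Fbxo21 at -0.0038 without WT pool 1 and -0.0060 without pool 740. Run as a covariate leaves 1 C2KO fibre against 7 WT fibres, and the other causes were not tested. Trim63 stayed between 0.71 and 1.05, Eif4ebp1 between 0.33 and 0.61 and Foxo1 between 0.35 and 0.61. With each pool left out in turn Fbxo30 ran from 0.20 to 0.91, Fbxo21 from -0.0060 to 0.15, Foxo3 from -0.13 to 0.80 and Klf15 from -0.36 to 0.48. Genes called over all tested numbered 6 with edgeR, 11 without a filter, 8 with limma-voom on the pools, 215 with DESeq2, 474 and 485 with limma-voom and edgeR over fibres, 41 with run, 21 with sex-linked RNA, 3 without fibre C2KO 11 and 1 to 358 when a pool was left out.

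In the related lists, fits added after seeing the data called 2 genes with DESeq2 (Rptor and Tgif1), 6 with limma-voom and 6 with edgeR over single fibres, each count near the share over all genes given above, and 0 to 2 without each pool in turn (Nupr1 and Sesn1 without pool 2445). No paired analysis was possible because replicate numbers of the fibres pair no samples across genotypes. Foxo3 and Ddit4, with 0 to 20 and 0 to 50 counts per fibre, have the lowest depth of the set.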
